A study of Mus musculus with 4 samples.

Results

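The SLC25 carriers are the main family of proteins that move small molecules across the inner membrane of mitochondria. All genes in the deposited tables whose GENCODE mouse symbol is Slc25a followed by a number were taken, which gave 47 of 50600 genes. Primary mouse T cells expressed most of them: 36 of the 47 were at a level of 1 TPM or more in all 4 libraries, where 22.7% of all genes were, and 28 were at 10 TPM or more in all 4, where 16.0% of all genes were. TPM, the usual length-scaled unit of transcript level, is the fragment count divided by the length of the gene's exons. It is scaled so that each library sums to the same total. Comparison between genes rests on the annotated exon length, which can differ from that of the transcripts made. Slc25a5 alone, an ADP/ATP carrier, held 46.9% ± 0.291 (SD, n = 4) of the family's summed TPM. That share rests on division by exon length, 1646 bases for Slc25a5 and 5550 for Slc25a3. In fragments Slc25a5 also led, but by less, with 429410 against 312244 for Slc25a3.

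Mitochondria make ATP behind a membrane that small ions and metabolites do not cross unaided. SLC25 proteins are built from repeated membrane-spanning modules around a central binding site, which opens in turn to the matrix and to the cytosol side, and most exchange one solute for another. They bring in ADP, phosphate, pyrimidine nucleotides, iron and cofactors, let ATP and citrate out, and pass amino acids and dicarboxylates in both directions. T cells that have been activated enlarge their mitochondria and use them for nucleotide, lipid and amino acid synthesis as well as for ATP. All carriers are made in the cytosol from nuclear genes, and their RNA is therefore read with that of other nuclear genes.

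The 4 libraries form 1 group of primary T cells of the C57BL/6NJ mouse strain, numbered as biological replicates 1 to 4. No label gives a genotype change, treatment or age, sex was not recorded, and all share 1 donor entry for the strain. A linked protocol describes differentiation of CD4+ T cells, and the alignment names carry the words Th0 and activated with a time of 24 h. The assay is called total RNA sequencing while a library protocol describes selection of poly(A)+ RNA. No contrast between conditions exists, so the values below describe levels in these cells and the spread between libraries. Separate animals are not named in the labels. The p-values below therefore refer to differences among these samples alone, and how far that spread is technical was not tested.

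Totals ran from 47558517 to 60102919 fragments in replicates 1, 3 and 4 and reached 273136467 in replicate 2. For a gene with 1 kb of exons, 3 fragments, taken as the detection floor, equal 0.0379 TPM in replicate 2 and 0.169 to 0.214 TPM in the others. The libraries differ in sex-linked RNA: Xist stood at 163 and 150 TPM in replicates 1 and 2 and at 0.715 and 0.696 TPM in replicates 3 and 4, while the Y-linked Ddx3y stood at 0.0434, 0.0219, 38.8 and 39.3 TPM. Replicates 1 and 2 thus did not come from the same animals as replicates 3 and 4. Markers of T cells were high. Each library held all 8 genes of the alpha-beta T cell list at 10 TPM or more, with Cd4 at 653 to 737 TPM and Cd8a at 0.804 to 0.862 TPM. Summed levels were 3.33 to 7.01 TPM over 5 B cell genes, 5.57 to 8.51 TPM over 6 myeloid genes, of which Cd68 gave 5.22 to 8.11, at most 0.502 TPM over 5 red cell and platelet genes, at most 0.172 TPM over 3 natural killer genes and at most 0.471 TPM over 3 stromal genes. The second CD8 gene, Cd8b1, was at 41.8 to 50.3 TPM. In bulk RNA, fewer cells of a type and less RNA per cell cannot be told apart.

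The ADP/ATP carriers show the range of the family best, since the levels of their genes span from the highest of the family to near the floor. For that reason the 250 bases before the RefSeq start site are shown for the 3 of them and, as the contrast, for Slc25a18, a glutamate carrier without a fragment in any library. Each is printed on its own strand, with every CG dinucleotide, the site of DNA methylation in mammals, in capitals. The RefSeq start lies 222 bases inside the gene as counted for Slc25a4 and 190 for Slc25a18, so most of these stretches lies within it. For Slc25a5 and Slc25a31 it is 54 and 16 bases from the annotated start of the counted gene. The build is GRCm38.p6, and the windows are chrX:36795347-36795596 (plus strand) for Slc25a5, chr8:46211063-46211312 (minus) for Slc25a4, chr3:40708621-40708870 (plus) for Slc25a31 and chr6:120773518-120773767 (plus) for Slc25a18.
Slc25a5: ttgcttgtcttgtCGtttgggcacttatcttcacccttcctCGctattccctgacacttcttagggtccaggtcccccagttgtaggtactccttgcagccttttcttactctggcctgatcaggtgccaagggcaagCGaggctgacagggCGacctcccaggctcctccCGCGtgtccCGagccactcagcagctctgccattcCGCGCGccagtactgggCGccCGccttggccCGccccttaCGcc
Slc25a4: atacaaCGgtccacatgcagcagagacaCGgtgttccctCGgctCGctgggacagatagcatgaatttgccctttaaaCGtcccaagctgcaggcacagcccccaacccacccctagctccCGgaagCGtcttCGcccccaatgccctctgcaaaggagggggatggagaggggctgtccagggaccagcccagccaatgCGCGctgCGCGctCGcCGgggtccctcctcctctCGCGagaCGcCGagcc
Slc25a31: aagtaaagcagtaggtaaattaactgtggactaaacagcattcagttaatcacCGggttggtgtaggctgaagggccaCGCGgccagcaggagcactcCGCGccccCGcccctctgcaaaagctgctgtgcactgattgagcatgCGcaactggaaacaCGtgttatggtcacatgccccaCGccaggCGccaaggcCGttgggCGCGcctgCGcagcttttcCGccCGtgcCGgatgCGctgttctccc
Slc25a18: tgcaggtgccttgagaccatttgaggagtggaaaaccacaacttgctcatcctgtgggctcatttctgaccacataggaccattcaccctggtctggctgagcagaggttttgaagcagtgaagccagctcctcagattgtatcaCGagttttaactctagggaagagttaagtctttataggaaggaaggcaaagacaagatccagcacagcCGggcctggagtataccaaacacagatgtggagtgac
The stretches hold 14, 18, 18 and 2 CG dinucleotides. Slc25a31 thus has as many as Slc25a4, although their levels lie far apart, and the count does not follow the order of levels within these 4 genes.

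ADP/ATP exchange, by which cytosolic ADP is traded for matrix ATP, took the largest share of carrier RNA of any role, 55.1% of the family's sum. Slc25a5, which encodes adenine nucleotide translocator Ant2 (X chromosome, 36795651 to 36798807), was at 2032, 2114, 2036 and 2051 TPM in replicates 1 to 4. It ranked number 31 among all genes by mean level. Slc25a4, which encodes Ant1, the form best known from heart and muscle, was at 355, 372, 355 and 364 TPM. The groups of values do not overlap, and in all 4 libraries Slc25a5 lay above Slc25a4, by 2.51 ± 0.01 (SD, n = 4) on the log2(TPM + 1) scale or 5.69-fold by the means. Slc25a31, the form known from testis, had 1, 0, 16 and 3 fragments, of which the 16 in replicate 3 equal 0.532 TPM (95% exact Poisson interval 0.304 to 0.864, counting error only). Of the longest annotated Slc25a5 transcript, 72.3% matched transcripts of 3 other genes at 95% identity or more. Those 3 genes held 767 fragments in all libraries together against 429410 for Slc25a5, and the pseudogene Slc25a5-ps was at 0.409 to 0.857 TPM, so that the count of Slc25a5 is uncertain by what fragments shared between copies would add.

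**Figure D1:**
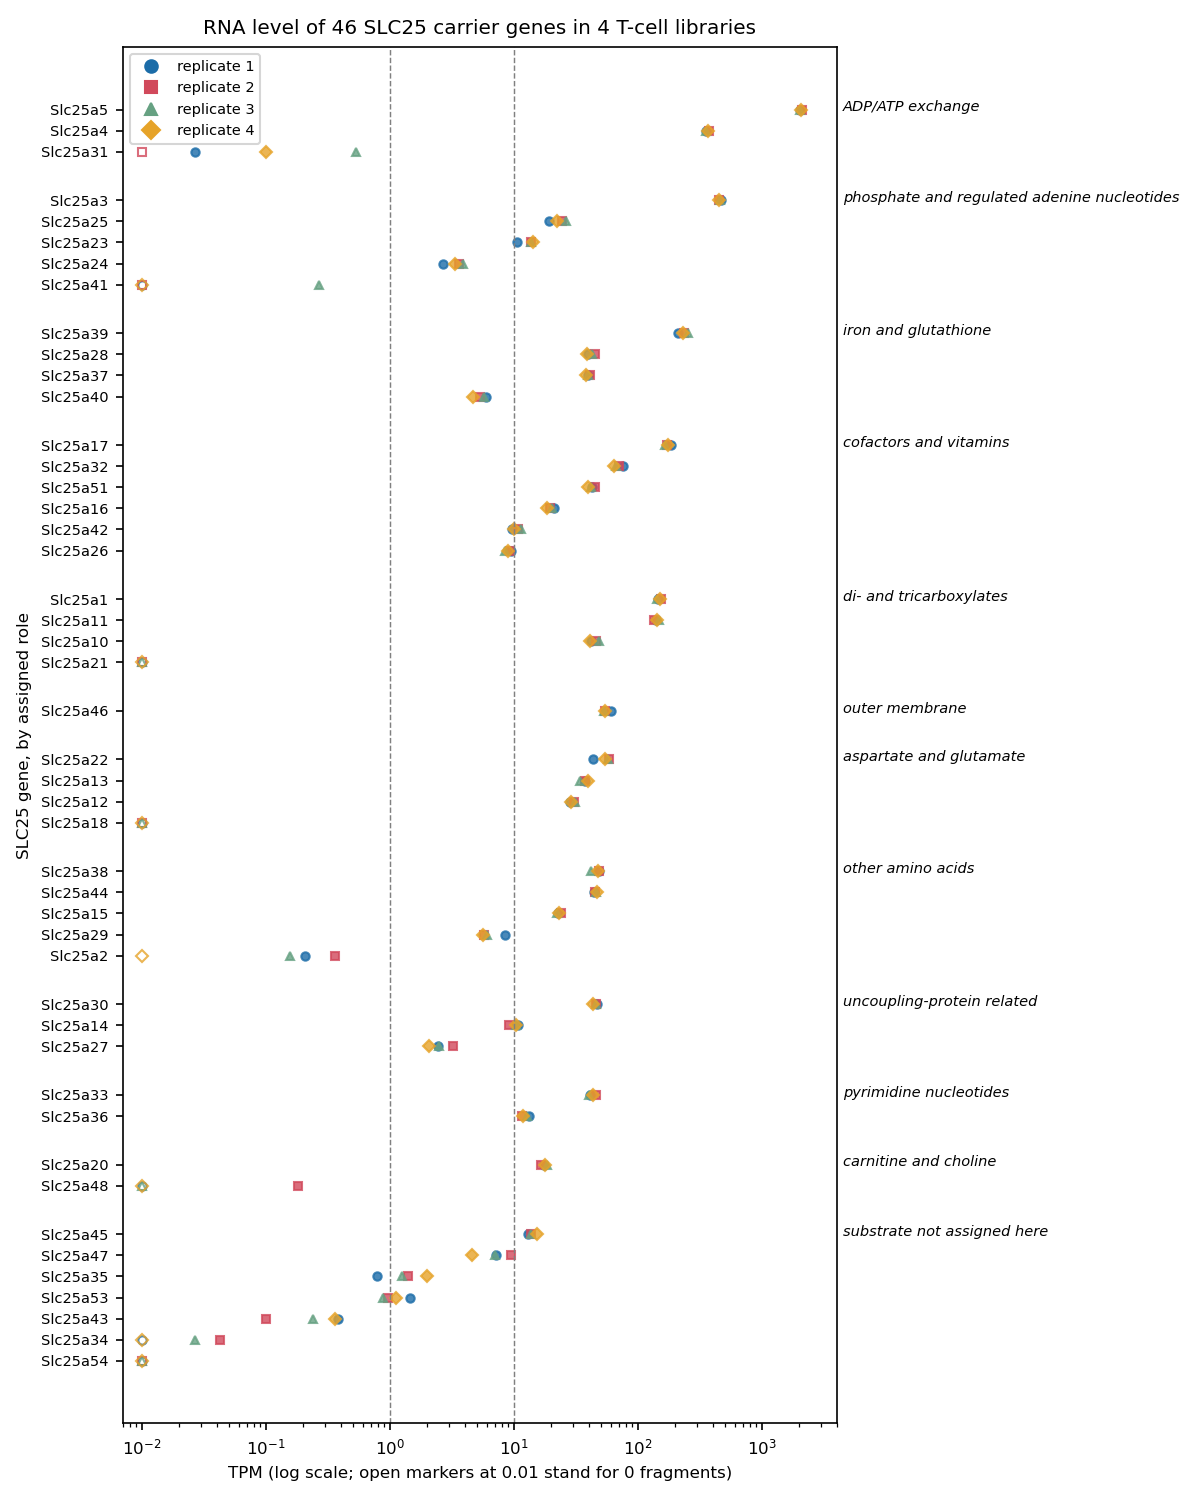
Level of 46 of the 47 SLC25 genes in TPM on a log axis, 1 row per gene grouped by role and 1 symbol per library, with open symbols at 0.01 for libraries without a fragment and dashed lines at 1 and 10 TPM. Slc25a5 stands apart at 2032 to 2114 TPM, most genes lie right of the line at 1 TPM in all 4 libraries, and the spread between libraries widens among the lowest genes.

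Phosphate and regulated adenine nucleotide carriers came next, with 493 ± 6.01 TPM (SD, n = 4) in sum. Nearly all of it was Slc25a3, which brings in the phosphate that ATP synthase needs (chromosome 10, 91116574 to 91124059), at 464, 446, 455 and 447 TPM. With Slc25a5 and Slc25a4 it made up 65.4% ± 0.240 of the family's TPM. The calcium-regulated ATP-magnesium/phosphate carriers, which change the size of the matrix adenine nucleotide pool, were far lower. Slc25a25 was at 19.1, 24.5, 26.0 and 22.1 TPM, Slc25a23 at 10.6, 13.6, 13.6 and 14.1 TPM, and Slc25a24 at 2.69, 3.58, 3.84 and 3.37 TPM. The 3 genes do not overlap in level, and replicate 1 gave the lowest value of each. Slc25a24 lay below Slc25a23 by 1.68 ± 0.09 and below Slc25a25 by 2.45 ± 0.04 in log2(TPM + 1) (first minus second, -1.68 and -2.45). A further member of this subgroup, Slc25a41, had 5 fragments in replicate 3 and none elsewhere.

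Cofactor carriers were all expressed: each of the 7 was at 1 TPM or more in all libraries and 5 were at 10 TPM or more. The highest was Slc25a17, a carrier of coenzyme A, FAD and NAD+ in the peroxisome membrane, at 184, 171, 164 and 174 TPM. Within mitochondria the leading gene was Slc25a32, linked to folate and FAD transport, at 75.2, 69.5, 66.1 and 63.8 TPM, with the lowest value in replicate 4. Slc25a51, the NAD+ carrier, was at 42.7, 44.7, 42.1 and 39.5 TPM. It lay below Slc25a32 in every library, and the values of the genes do not overlap. Slc25a16 and Slc25a42, both linked to coenzyme A, had means of 19.9 and 10.5 TPM, and Slc25a26, the S-adenosylmethionine carrier, 9.03 ± 0.431 TPM (SD, n = 4).

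Carriers of di- and tricarboxylates move the acids of the citric acid cycle. Slc25a1, which exports the citrate used for lipid synthesis, was at 144, 152, 143 and 151 TPM. Slc25a11, the oxoglutarate carrier, was at 140, 134, 147 and 141 TPM. The values of both overlap, and their order differed between libraries. Slc25a10, which exchanges malate or succinate for phosphate, was lower at 41.5, 46.1, 48.3 and 40.8 TPM, and no library of it reached those of Slc25a11, which was 3.18-fold higher by the means. Slc25a21, the carrier of longer oxodicarboxylates, had no fragment in any library, with a floor of 3 fragments equal to 0.0439 TPM in the shallowest one.

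The malate-aspartate shuttle, which carries reducing equivalents from cytosolic NADH into mitochondria, needs an aspartate/glutamate exchanger next to Slc25a11. Both exchangers were expressed at similar levels. Slc25a13, the form known from liver, was at 37.6, 37.3, 33.8 and 39.5 TPM, and Slc25a12, the form known from brain and muscle, at 28.1, 30.4, 30.8 and 28.8 TPM. Slc25a13 was above Slc25a12 in 4 of 4 libraries, by 0.32 ± 0.14 in log2(TPM + 1), or 1.25-fold. This order held per length only: by counts not divided by length Slc25a12 was the higher. The shuttle's enzymes all stood above both carriers, with malate dehydrogenases Mdh2 at 494 ± 32.6 and Mdh1 at 261 ± 6.99 TPM and aspartate aminotransferases Got1 at 213 ± 8.52 and Got2 at 189 ± 6.71 TPM (SD, n = 4).

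Of the glutamate carriers, Slc25a22 was detected at 43.6, 57.9, 57.6 and 54.0 TPM and Slc25a18 had no fragment in any library. With Slc25a18 set to its floor of 3 fragments in each library, Slc25a22 was at least 482-fold higher in each of the 4, with the lowest ratio in replicate 4. Replicate 1 gave the lowest value of Slc25a22 by a wide margin. The other amino acid carriers were led by Slc25a38, which imports glycine for heme synthesis, at 48.4, 48.3, 41.6 and 47.9 TPM, and by Slc25a44, a carrier of branched-chain amino acids, at 43.9, 45.3, 46.1 and 46.6 TPM. The ornithine carrier Slc25a15, at 23.0 ± 0.811 TPM (SD, n = 4), was above the related Slc25a2, which had 5, 39, 3 and 0 fragments. The lowest of the 4 ratios was 66.9-fold, in replicate 2, with the library at 0 set to its floor. Slc25a29, a carrier of basic amino acids, was at 8.41, 5.68, 6.03 and 5.58 TPM, with replicate 1 above the other 3.

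Iron and glutathione carriers summed to 318 ± 18.6 TPM (SD, n = 4). Most came from Slc25a39, which takes glutathione into mitochondria, at 211, 235, 252 and 230 TPM. Its paralog Slc25a40, linked to the same substrate, was at 5.88, 5.33, 5.73 and 4.68 TPM, so that Slc25a39 was 42.9-fold higher by the means, the widest gap among pairs in which both genes were at 1 TPM or more. The mitoferrins, which import iron for heme and iron-sulfur clusters, stood close together. Slc25a37, mitoferrin 1, known from red cell precursors, was at 39.5, 40.6, 39.7 and 38.2 TPM, and Slc25a28, mitoferrin 2, at 39.5, 45.1, 42.7 and 38.8 TPM. Their ranges overlap, and Slc25a28 was the higher in 3 of 4 libraries, by 0.07 ± 0.07 in log2(TPM + 1). Slc25a37 was the higher by counts not divided by length. Summed red cell and platelet markers were at most 0.502 TPM in these libraries.

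Pyrimidine nucleotide carriers supply the mitochondrial DNA and RNA polymerases. Slc25a33 was at 41.2, 45.8, 40.4 and 43.1 TPM and Slc25a36 at 13.1, 11.6, 12.8 and 11.8 TPM. The genes do not overlap, with Slc25a33 3.46-fold higher by the means, although per fragment, without division by length, the order turned round. Of the longest Slc25a36 transcript 17.7% matched the predicted gene Gm13217, which held 63 fragments against 14390 for Slc25a36. The carnitine/acylcarnitine carrier Slc25a20, through which fatty acids enter for oxidation, was at 17.5, 16.5, 18.5 and 17.7 TPM, with 18.0% of its longest transcript matched by transcripts of 26 other genes. Those genes held 339210 fragments in all libraries together against 10320 for Slc25a20, counted over all their exons and not the matched stretches alone. Shorter matches to many genes were found for Slc25a51, with 6.20% of its transcript and 94 genes, and Slc25a42, with 3.83% and 30 genes, and the levels of these 3 carriers are uncertain by the fragments such stretches share. Slc25a48, linked to choline, had 48 fragments in replicate 2, equal to 0.180 TPM, and none in the other libraries. Of its longest transcript, 3.97% matched transcripts of 3 other genes, which held 113269 fragments in all libraries, again over all their exons.

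Among the members related to uncoupling proteins, Slc25a30 was at 46.4, 45.6, 45.9 and 43.0 TPM, Slc25a14 at 10.8, 9.04, 10.4 and 10.4 TPM, and Slc25a27 at 2.45, 3.23, 2.48 and 2.07 TPM. Uncoupling proteins themselves belong to the family but carry another symbol. Ucp2, the form known from immune cells, was at 204, 224, 231 and 226 TPM, above every one of these, whereas Ucp1, the heat producer of brown fat, and Ucp3 had no fragment. Slc25a46, which sits in the outer membrane and takes part in mitochondrial shape, was at 60.4, 54.1, 52.9 and 54.2 TPM. The related outer-membrane proteins Mtch1 and Mtch2 were at 89.2 ± 5.68 and 43.9 ± 2.20 TPM (SD, n = 4). For 7 members no substrate is given here, and they summed to 23.6 ± 1.27 TPM. Of these Slc25a45 was highest at 13.0, 13.6, 13.6 and 15.3 TPM, and Slc25a47, known from liver, was at 7.14, 9.40, 6.99 and 4.61 TPM, a 2.04-fold range between libraries.

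**Figure D2:**
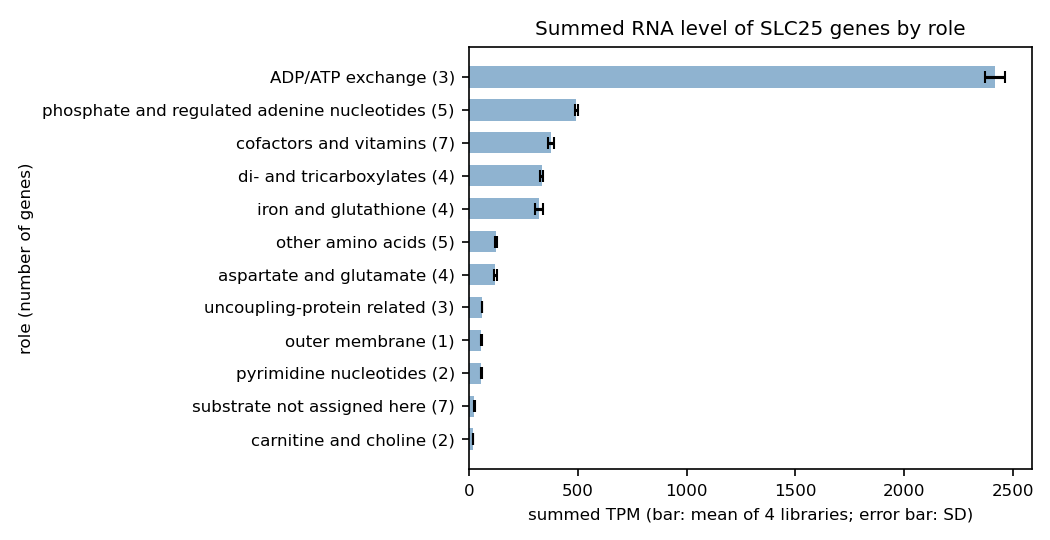
Summed TPM of the SLC25 genes grouped by assigned role, on a linear axis from 0. Bars give the mean of the 4 libraries, error bars the SD, and brackets the number of genes. ADP/ATP exchange stands highest at 55.1% of the family's sum, and the error bars are short beside the bars of the leading roles.

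At the low end, 9 members were below 1 TPM in all libraries, and Slc25a35 and Slc25a53 lay on both sides of that level. Slc25a35 was at 0.782, 1.39, 1.25 and 2.00 TPM and Slc25a53 at 1.44, 0.966, 0.871 and 1.11 TPM. The highest library of Slc25a35 was replicate 4 and that of Slc25a53 was replicate 1. On the opposite strand, 31.3% of the exon length of Slc25a35 overlaps Rangrf, and the counting used strand. Slc25a43 had 12, 14, 6 and 9 fragments, and Slc25a34 had 0, 9, 1 and 0. For the 3 members without a fragment, Slc25a18, Slc25a21 and Slc25a54, the 3-fragment floor equals 0.112, 0.0439 and 0.120 TPM in the shallowest library. In replicate 2, the deepest, it equals 0.0198, 0.00778 and 0.0213 TPM, and levels below these were not detectable.

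In all, carrier RNA made up a similar part of all TPM in the 4 libraries, and sums of other gene sets were not compared with it. The family summed to 4345, 4474, 4372 and 4368 TPM in replicates 1 to 4, or 0.439% ± 0.00573 (SD, n = 4) of all TPM. The 36 members at 1 TPM or more had a median of 40.5 TPM, against 28.6 TPM over all 11483 genes at that level. From the highest to the lowest of these 36, only 16 of the 35 neighbours in the order kept that order in every library. The top 6 genes, Slc25a5, Slc25a3, Slc25a4, Slc25a39, Slc25a17 and Slc25a1, kept theirs in all 4 libraries, while Slc25a1 and Slc25a11 did not differ beyond their spread.

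Pairs of closely related carriers were set side by side to see which form had the higher RNA level in TPM. In 11 of 12 pairs 1 form was higher in all 4 libraries, the exception being the mitoferrins. Of these, Slc25a13 over Slc25a12 and Slc25a33 over Slc25a36 reversed in counts not divided by length. In those 11, differences ran from 1.25-fold by the means for Slc25a13 over Slc25a12 to at least 482-fold in each library for Slc25a22 over Slc25a18. Slc25a30 was above Slc25a14, with a difference of -2.05 ± 0.11 (Slc25a14 minus Slc25a30, log2(TPM + 1), SD, n = 4), and Slc25a35 above Slc25a34, with -1.19 ± 0.31 (Slc25a34 minus Slc25a35). A two-sided exact sign-flip permutation test with 4 libraries cannot go below p = 0.125, the value of those 11 pairs, or 0.136 after Benjamini-Hochberg adjustment over 12. By that test no pair passed 0.05.

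**Figure D3:**
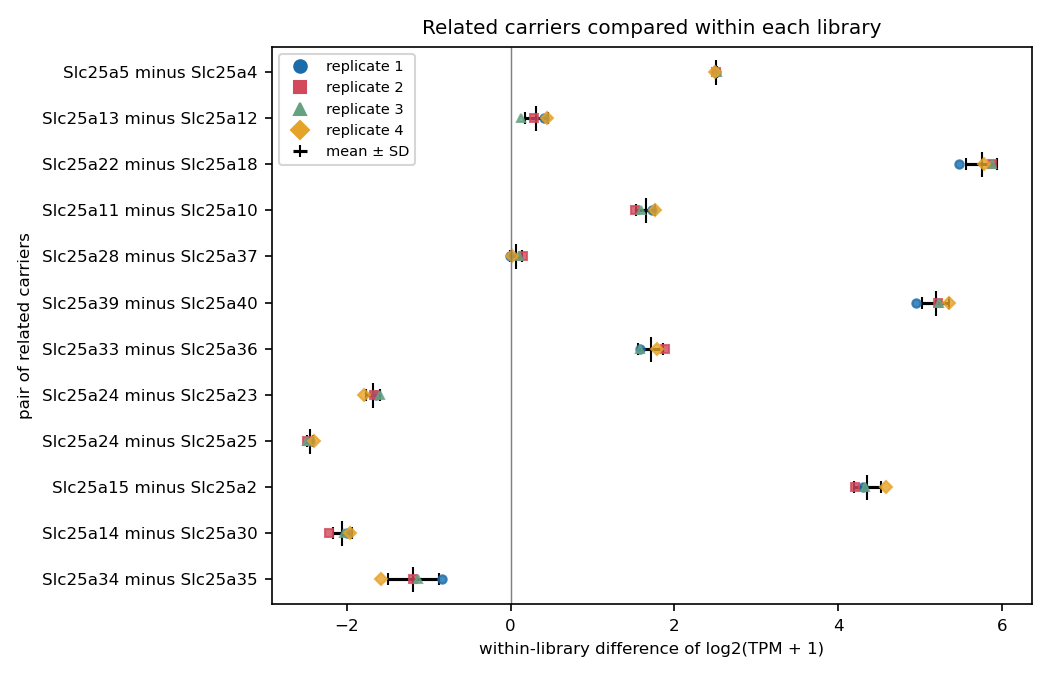
Difference between the 2 genes of each related pair, as log2(TPM + 1) of the first minus that of the second, 1 symbol per library with the mean and SD in black, and the line at 0 marking equal levels. In 7 pairs all symbols lie right of 0, in 4 all lie left of it, and those of Slc25a28 and Slc25a37 lie on or near it.

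Between libraries the family varied little. Among the 28 members at 10 TPM or more, the coefficient of variation ran from 1.85% for Slc25a5 to 13.2% for Slc25a25, with a median of 5.61% against 5.66% over all genes at that level. The highest library was under 1.2 times the lowest for 24 of them, and 1.36 times at most. The test of variation beyond what genes of like abundance show (edgeR goodness of fit, adjusted over all genes) called 0 of the 38 members tested, where it called 0.362% of the 12712 genes tested. At an unadjusted p under 0.05 it held 2 of the 38, Slc25a22 and Slc25a25, where it held 5.54% of all genes. Their adjusted p-values by edgeR were 0.367 and 0.583. With a single common dispersion for all genes edgeR called 2 members, Slc25a47 and Slc25a35, and 6.78% of all genes. The median residual deviance, which measures departure from the common mean, was 1.61 over the 38 members and 1.98 over all genes.

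The departures of members from their own mean moved with base composition in replicate 1. Spearman's rho of the deviation in log2 TPM on the GC content of the transcript over the 28 members at 10 TPM or more was -0.770, 0.505, 0.214 and 0.467 in replicates 1 to 4. Over 8104 genes at that level the values were -0.514, 0.131, 0.296 and 0.322. The 4 values of a gene share its mean, so that a low value in 1 library raises the others. Slc25a22 and Slc25a23, at 57.6% and 56.4% GC, and Slc25a25 at 49.0% were the members furthest below their mean in replicate 1. With the GC trend of each library removed, the adjusted p of Slc25a22 by edgeR was 0.769 and that of Slc25a25 was 0.344. Without replicate 1, the residual deviance of Slc25a22 was 0.724 in place of 12.7. Replicate 1 was its most distant library, and leaving out such a value lowers the deviance by construction. The median deviance over all genes was 1.08 in place of 1.98. Whether base composition underlies the low values of replicate 1 was not tested.

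**Figure D4:**
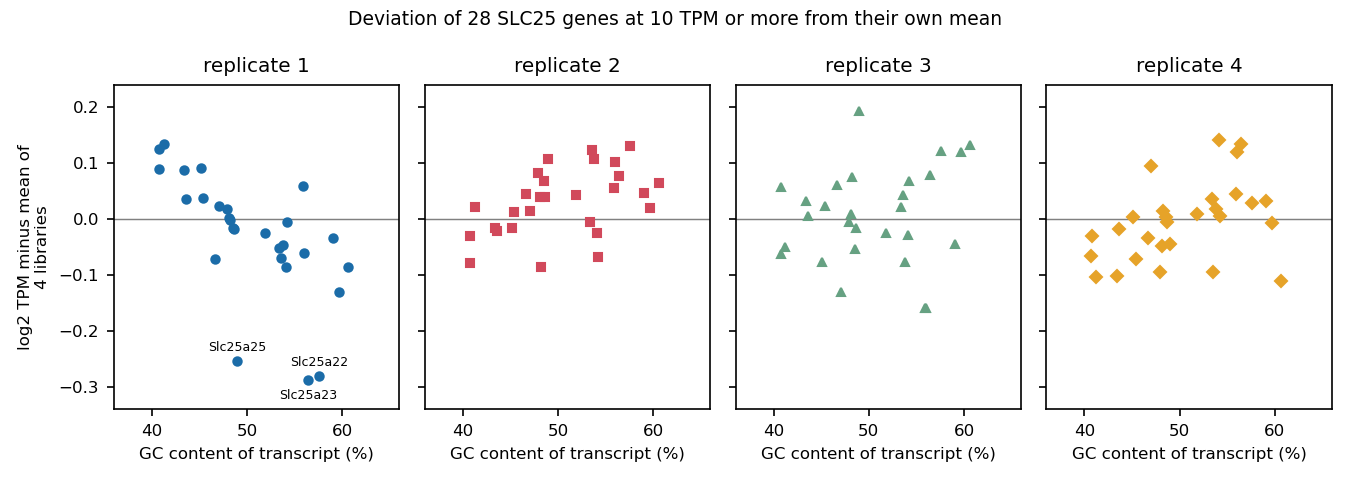
Deviation of each of the 28 SLC25 genes at 10 TPM or more from its own mean over the libraries, in log2 TPM, against the GC content of its transcript in percent, 1 panel per library. Points slope downward in replicate 1, where Slc25a22, Slc25a23 and Slc25a25 lie lowest.

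RNA of proteins that carriers depend on was also measured. The import machinery, whose small chaperones and TIM22 complex insert carriers into the inner membrane, had 12 of 13 genes at 10 TPM or more in all libraries and a median of 131 TPM. Its highest gene was the receptor subunit Tomm22 at 404 ± 10.3 TPM (SD, n = 4), and the carrier receptor Tomm70a followed at 316 ± 21.4 TPM. The chaperone Timm8b was at 278 ± 20.9 TPM and the pore subunit Tomm40 at 276 ± 3.73 TPM. Of 14 inner-membrane transporters from other families, 10 were at 10 TPM or more, with the serine transporter Sfxn1 at 310 ± 7.74 TPM. Ghitm, an ion exchanger of the inner membrane, was at 278 ± 3.83 TPM, and the ABC transporter Abcb8 was at 57.9 ± 3.17 TPM. In the outer membrane the channels Vdac1, Vdac2 and Vdac3, through which solutes pass before they meet a carrier, were at 431 ± 12.2, 203 ± 7.90 and 34.7 ± 2.46 TPM. Of the 37 genes of these lists that edgeR tested, 0 were called as varying, where 0.362% of all genes were. At an unadjusted p under 0.05 there was 1 of the 37, where 5.54% of all genes were, so neither count sets these genes apart. It was Mpc2, a subunit of the pyruvate carrier, at 17.9, 13.6, 13.3 and 14.7 TPM, named after its values were seen.

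**Figure D5:**
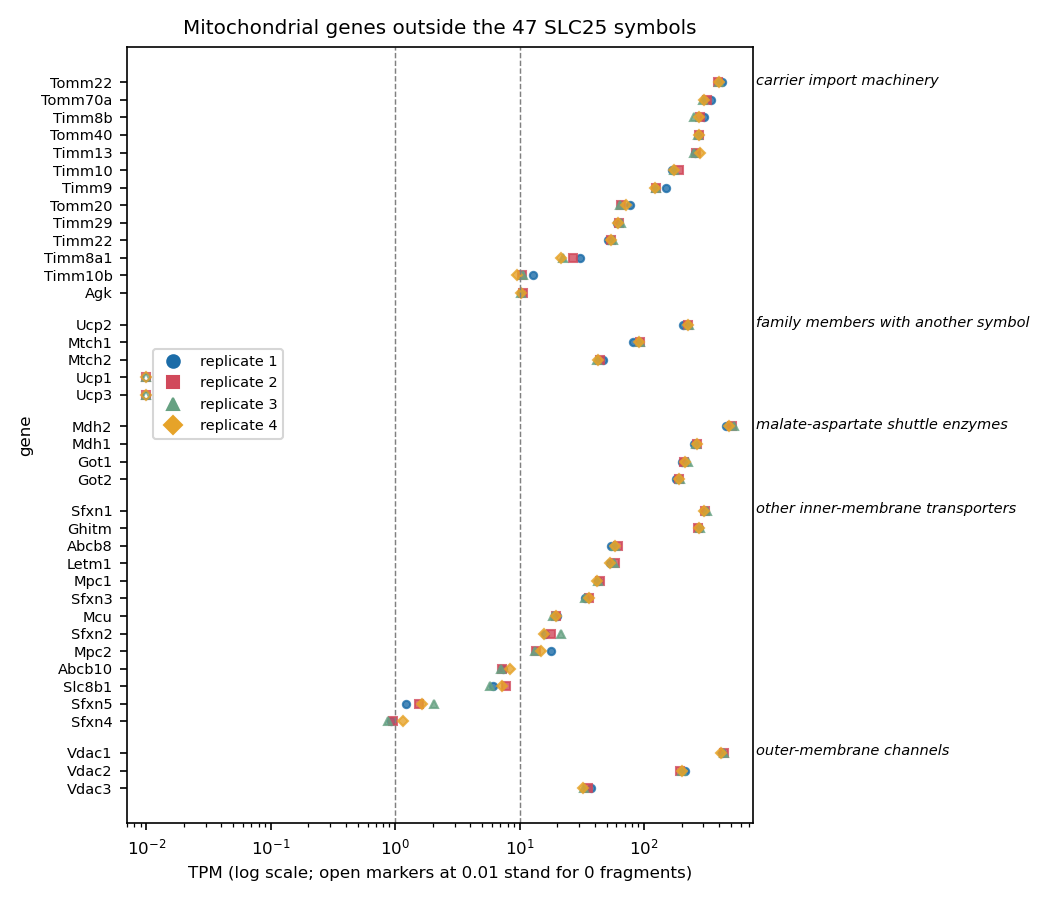
Levels in TPM on a log axis of genes from the related lists, grouped by list, with 1 symbol per library, open symbols at 0.01 for libraries without a fragment and dashed lines at 1 and 10 TPM. Mdh2, Vdac1 and Tomm22 stand highest, and Ucp1 and Ucp3 are at 0 in all 4 libraries.

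Promoter windows from 250 bases before to 50 after the start site were found in RefSeq (GRCm38.p6) for 36 of the 47 members. The 22 members at 10 TPM or more held a median of 21 CG dinucleotides per window, against 23 over 6316 genes at that level. The 7 members below 1 TPM held 11, against 4 over 11083 such genes. Letters of 3 known motifs were searched on both strands, and a match is a description of these letters, not of binding. The E-box CACGTG, which MYC and USF proteins can bind, was in 6 of 36 windows (16.7%; 7.71% of all 19967 windows), the ETS motif CCGGAAG in 7 (19.4%; 11.2%), and the palindromic NRF1 motif, with 1 free base, in 2 (5.56%; 6.08%). These shares are over genes of every level. Among genes at 10 TPM or more, the E-box was in 18.2% of member windows and 11.1% of all, the ETS motif in 27.3% and 23.6%, and the NRF1 motif in 4.55% and 13.2%, which for the 22 members are 4, 6 and 1 windows. Windows with the E-box were those of Slc25a1, Slc25a13, Slc25a14, Slc25a31, Slc25a33 and Slc25a36, and the ETS letters stood in those of Slc25a3, Slc25a4, Slc25a17, Slc25a20, Slc25a25, Slc25a38 and Slc25a54. Slc25a3 and Slc25a31 held the NRF1 letters, named for a factor known to act on nuclear genes of mitochondria. The lists with a match thus hold genes at very different levels, from Slc25a3 at 453 TPM to Slc25a54 without a fragment.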

How the data were processed

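Paired-end RNA sequencing covered 4 libraries of mouse T cells. The authors deposited whole-number counts: per the file headers, read pairs aligned at both ends were counted over GENCODE vM13 exons by featureCounts 1.4.6-p4 with strand setting 2, and fragments with several alignments or several genes were not requested. The alignments are named as STAR output on mm10, and its settings are not given in the sources used here. Genes with near-identical copies are therefore uncertain.

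From the counts and exon lengths, TPM and, as alternatives, FPKM and CPM (counts not divided by length) were computed here. Symbols came from GENCODE vM21 and matched 50376 of 50600 identifiers. The named genes are members at 10 TPM or more, members of the 12 pairs, members below 1 TPM with their fragments, the 4 highest genes of each related list and pseudogenes of members with 3 or more fragments. The remaining members and other genes, such as Xist and Ddx3y, were named to account for the family or the libraries, and some genes are not reported here. The members and lists were chosen with earlier results of these data known. No sample was dropped, and chi-square values per degree of freedom of 9.14 to 29.1 between libraries showed no library deposited again.

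Variation between libraries was tested with edgeR 4.0.16 (R 4.3.3): filterByExpr with a minimum count of 10, TMM, trended dispersion in an intercept-only model, and a chi-square test of the residual deviance (3 degrees of freedom), adjusted by Benjamini-Hochberg over 12712 genes at 0.05. The script was tested on simulated data. Pairs were compared as log2(TPM + 1) by exact sign-flip permutation. Near-identical transcripts were sought with blastn 2.17.0 at 95% identity over 100 bases or more. Alternatives were DESeq2 1.42.0 size factors, other filters, a common dispersion, FPKM, a pseudocount of 0.1, TPM without mitochondrially encoded genes and leaving out each library. Removal of each library's GC trend and thinning of replicate 2 were chosen after seeing the data. The design had also named a comparison of protein sequences, which was not analysed here.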

Additional observations from a re-analysis of the deposited data

Results flagged for a closer look

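In 7 of 60 sets of 4 values (47 members and other quantities), 1 library lay far from the other 3 relative to the range. For independent sets of normally distributed values, chance gives about 1 in 20. Sets with fragments in a single library, such as those of Slc25a41 and Slc25a48, always pass this rule. The 7 sets are therefore no measure of an excess. In replicate 1, Slc25a46 was at 60.4 TPM against 52.9 to 54.2 TPM in the others, Slc25a29 at 8.41 TPM against 5.58 to 6.03 TPM, and Slc25a23 at 10.6 TPM against 13.6 to 14.1 TPM. Slc25a38 was at 41.6 TPM in replicate 3 against 47.9 to 48.4 TPM elsewhere. Slc25a41 reached 0.266 TPM in replicate 3 and Slc25a48 0.180 TPM in replicate 2, each with no fragment in the other libraries. The total of replicate 2, 273136467 fragments, stood above the 47558517 to 60102919 of the others.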

How the results depend on the processing

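The family's counts at cutoffs of 1 and 10 stayed within 1.5 times under every alternative run, at 34 to 38 and 19 to 30 members. The lowest, 34 and 19, were in FPKM, where the same cutoffs are stricter. In TPM the counts were 36 to 38 and 28 to 30. In FPKM the median of members was 5.67 in place of 19.4, and the sum was 1285 in place of 4390, as that scale does not fix the total. Without mitochondrially encoded genes the sum was 4460.5 TPM. With a common dispersion edgeR called 2 members in place of 0, and it called 0 under the other alternatives. In CPM, not divided by length, 3 pair differences reversed: Slc25a13 minus Slc25a12 was -0.61, Slc25a28 minus Slc25a37 was -1.87 and Slc25a33 minus Slc25a36 was -0.54. Without replicate 1, 12 of 12 pairs had 1 sign, and leaving out each library gave sums of 4362 to 4405 TPM and medians of 19.1 to 19.7 TPM. Libraries could not be paired between conditions because all form 1 group, and the pairs above are genes compared within each library. Depth limits the 9 members below 1 TPM, of which 3 had no fragment at all, and the number of animals is not known.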

Other observations

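Some members are neighbours in the genome (mm10 coordinates of the deposited tables). Slc25a29 and Slc25a47 lie 15.2 kb apart on chromosome 12 at mean levels of 6.43 and 7.03 TPM. In the other pairs within 100 kb the levels lie far apart: Slc25a41 and Slc25a23, 2.06 kb apart on chromosome 17, were at 0.0665 and 13.0 TPM. Slc25a54 and Slc25a24, 6.46 kb apart on chromosome 3, were at 0 and 3.37 TPM. Slc25a43 and Slc25a5, 18.4 kb apart on chromosome X, were at 0.270 and 2058 TPM.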
